A study of Mus musculus with 16 samples.

Results

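The effect of the *Kat6b* transgene in embryos that lack KAT6A was measured by comparing the *Kat6a-/-Tg(Kat6b)* embryos with the *Kat6a-/-Kat6b+/+* embryos. Both groups were taken by their genotype labels, 4 embryos each and 8 of the 16 embryos of the series, and all 26411 genes of the count files entered. Each sample was the RNA of 1 whole E9.5 mouse embryo of a mixed FVB and BALB/c background. Both groups are homozygous for a *Kat6a* null allele that lacks a block of internal exons, and the *Kat6a-/-Kat6b+/+* embryos (below, null controls) carry no transgene. The *Kat6a-/-Tg(Kat6b)* embryos (null transgenics) carry in addition several copies of a bacterial artificial chromosome, from a single founder, with the *Kat6b* gene and its flanks under its own promoter. The remaining embryos, 4 *Kat6a+/+Kat6b+/+* (wild type) and 4 *Kat6a+/+Tg(Kat6b)* (wild-type transgenic), shared the fit and serve as reference levels.

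The groups share no litter. Null controls 1 and 2 were females of litter 801 and null controls 3 and 4 males of litter 803, while null transgenics 1, 2 and 3 (male, female, male) came from litter 483 and null transgenic 4 (female) from litter 498. The transgene and the litter therefore cannot be told apart in any value below. Wild types 1 and 2, both male, came from litters 801 and 803, and wild types 3 and 4, both female, from litters 2597 and 2598, which also gave all wild-type transgenics. Values for the 4 embryos of a group are listed in the order 1 to 4. They are CPM, read counts scaled to a common library total with a correction for composition. Counts on genes summed to between 16091022 and 45665680 for these 8 embryos, with scaling factors between 0.985 and 1.01. A log2 fold change is positive where the null transgenics were higher and is given ± standard error, and FDR is the edgeR p-value adjusted over all 15679 tested genes, with a threshold of 0.05. The fit adjusts for 2 surrogate variables, covariates estimated from the data. A log2 fold change can therefore differ from the ratio of the CPM listed. Because whole embryos were sequenced, fewer cells of a type and less RNA per cell cannot be told apart.

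KAT6A and KAT6B are paralogous lysine acetyltransferases of the MYST family. Each works in a complex with a BRPF scaffold protein, ING4 or ING5 and MEAF6 that acetylates lysines of histone H3 at the promoters and enhancers of developmental genes. In the embryo KAT6A is known for the correct onset and extent of *Hox* expression along the body axis and for *Tbx1* and *Tbx5* expression in the pharyngeal arches and the heart, and KAT6B for roles in the brain and the skeleton.

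*Kat6b* itself was the gene with the smallest p-value of the comparison. Its level was 48.6, 46.5, 51 and 50.4 CPM in the null controls and 192, 204, 199 and 195 CPM in the null transgenics. The groups were far apart, with log2 fold change 2.05 ± 0.07, FDR 8.7e-10 and a 4.01-fold ratio of means. The exact permutation test of the 8 values gave p = 0.0286 (two-sided), the smallest that 70 splits allow. Wild-type transgenics had 155, 198, 188 and 227 CPM, a range that contained the null transgenics (p = 0.657, exact permutation test). *Kat6a* counts cannot check the null genotype, since they are summed over the whole gene. *Kat6a* was at 189 to 218 CPM in the null controls and at 184 to 201 CPM in the null transgenics (log2 fold change -0.01 ± 0.08, FDR 0.98). Of the 11 listed MYST acetyltransferases and partners of KAT6 complexes, *Kat6b* and *Ing5* were higher (*Ing5*, 0.18 ± 0.05, FDR 0.027) and none lower, where 3.39% and 3.74% of all tested genes were higher and lower. The *Kat6b* call follows from the transgene itself. When each embryo was left out in turn, the *Ing5* call was kept in 12 of 16 fits.

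Genes beside *Kat6b* were looked at because the clone holds sequence on either side of it. *Kat6b* lies at chr14:21531502-21722546 on the plus strand (GRCm39), and *Dusp29*, a dual-specificity phosphatase of muscle, at chr14:21724865-21764766 on the minus strand, just past its end. *Dusp29* was at 0.387, 0, 0.0591 and 0.141 CPM in the null controls and 1.24, 1.73, 1.91 and 1.43 CPM in the null transgenics. It was nearly silent without the transgene and low but present in every null transgenic (log2 fold change 3.57 ± 0.49, FDR 2.5e-04). The wild-type transgenics had 0.948 to 1.62 CPM against 0.0435 to 0.206 CPM in wild types. *Nid2*, a basement membrane glycoprotein at chr14:19801298-19861855, was also higher (0.22 ± 0.04, FDR 0.0038). Its wild-type transgenic level of 136 to 152 CPM overlapped the wild-type range of 140.5 to 162 CPM. *Kat6b* itself, *Dusp29* and *Nid2* were the 3 called genes of 10 tested on this list (30%, against 3.39% of all tested genes higher). The transgene carries *Kat6b*, so its call follows from the design and this share is no measure of its neighbours. By its position *Nid2* lies outside the clone that the authors describe.

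A total of 1119 genes were differentially expressed between null transgenics and null controls, 7.14% of the 15679 tested, of which 532 were higher (3.39%) and 587 lower (3.74%). The changes were small. The median absolute log2 fold change of the called genes was 0.28 (1.22-fold), 189 changed over 1.5-fold (78 higher, 111 lower) and 78 over 2-fold (22 higher, 56 lower). CPM values of the groups did not overlap for 2388 genes (15.2%; 7.29% with the null transgenics higher and 7.94% lower), and for 871 of the 1119 called. The number called rested on individual embryos. It was 492 without null control 1, 668 without null control 2, 574 without null transgenic 2, 636 without null transgenic 3 and 583 without null transgenic 4.

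**Figure D1:**
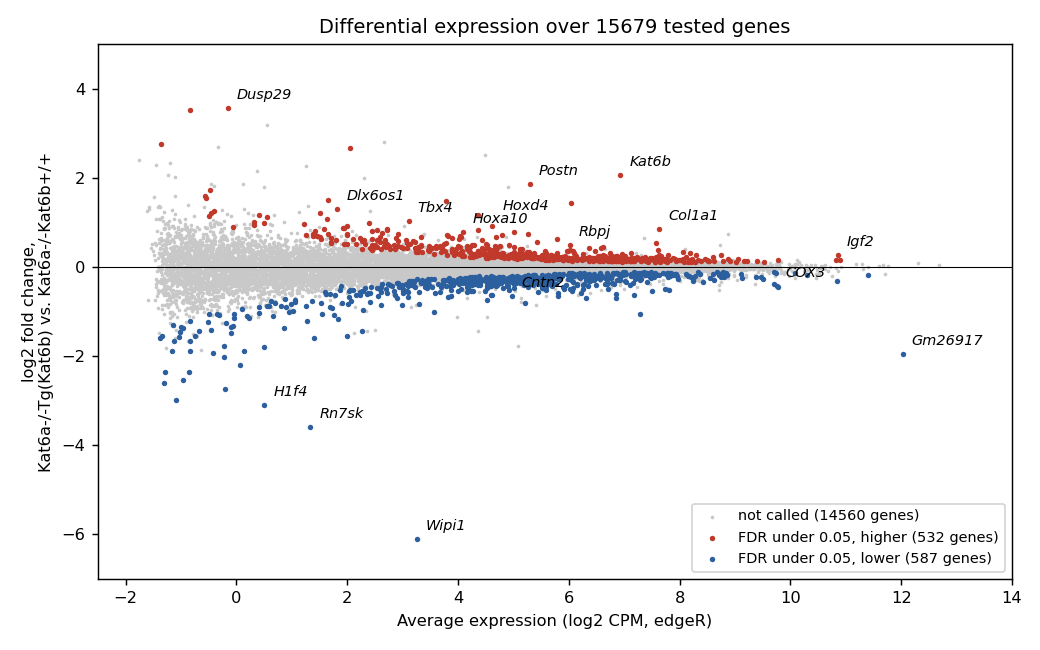
Log2 fold change between *Kat6a-/-Tg(Kat6b)* and *Kat6a-/-Kat6b+/+* embryos (y) against average expression in log2 CPM (x), 1 point per tested gene, with the 532 genes called higher in red, the 587 called lower in blue and the rest in grey. Most called genes lie close to 0 (median absolute log2 fold change 0.28), *Kat6b* stands at 2.05 and *Wipi1* at -6.10.

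Several library properties moved with the groups. *Gm26917*, an abundant long noncoding RNA, was at 11820.0, 10940.0, 4884 and 5360.0 CPM in the null controls and 2470.0, 2035, 2773 and 1587 CPM in the null transgenics. All null controls were above all null transgenics and the 2 of litter 801 were highest (log2 fold change -1.96 ± 0.44, FDR 0.027). Short genes were lower on average. The median log2 fold change was -0.24 for the 251 tested genes up to 500 bases, -0.17 for the 836 between 500 and 1000 bases, 0.03 for the 4478 between 4000 and 8000 bases and -0.02 for the 989 above 8000 bases. With *Gm26917* as a further covariate 34 genes were called (20 or 0.128% higher, 14 or 0.0893% lower), 28 of them among the 1119. Since *Gm26917* itself separated the groups, this fit also takes away part of the contrast. With gene length offsets 1310 were called (700 or 4.46% higher, 610 or 3.89% lower), of which 868 were shared. The comparison restricted to the females called 388 genes (173 or 1.10% higher, 215 or 1.37% lower), of which 247 were shared. The males alone gave 84 (47 or 0.300% higher, 37 or 0.236% lower), of which 69 were shared. Without the 2 null controls of litter 801, and with the number of surrogate variables held at 2, 81 genes were called (0.306% higher, 0.200% lower), of which 67 were shared. Among wild types, the difference of litters 2597 and 2598 from litters 801 and 803 had the sign of the null comparison for 72.6% of the 1119 called genes and for 58.8% of all tested genes. The part of litter, sex and library composition in the calls was not tested. Reads are also uncertain where exons overlap a gene on the opposite strand, since the libraries keep no strand. Among genes named below this touches 30.8% of exon bases of *Hoxb6*, 43.6% of *Hoxa11*, 36.8% of *Hand1*, 37.9% of *Lhx1*, 47.7% of *Mest*, 33.6% of *Nefl* and 38.2% of *Nefm*.

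Across all 4 of those restricted or adjusted fits (females, males, without litter 801 controls at 2 surrogate variables, and *Gm26917* as covariate) 13 genes were called every time, 10 higher and 3 lower. The higher ones were *Kat6b*, *Dusp29*, *Hoxa10*, *Hoxd4*, *Rbpj*, *Luc7l3*, *Steap2*, *Mir17hg*, *Prdm6* and *Dlx6os1*, and the lower ones *Wipi1*, *COX3* and *Nrip1*. *Rbpj*, the DNA-binding effector of Notch signalling at chr5:53623494-53814704, was at 57.03, 53.01, 60.4 and 60.9 CPM in the null controls and 83.2, 73.95, 84.9 and 78.8 CPM in the null transgenics. The groups did not overlap (log2 fold change 0.50 ± 0.04, FDR 7.2e-07). Both wild-type groups (56.8 to 60.5 and 59.2 to 64.4 CPM) were near the null controls. *Luc7l3*, a splicing factor with arginine- and serine-rich repeats, was higher at 205 to 228 CPM in null transgenics against 161 to 172 CPM in null controls (0.37 ± 0.04, FDR 4.8e-05). *Rbm25*, another splicing regulator that did not pass every one of those fits, was at 331 to 348 against 279.5 to 293 CPM (0.26 ± 0.03, FDR 4.6e-05). *Steap2*, a metalloreductase, was at 16.9 to 19.4 against 10.99 to 12.3 CPM (0.64 ± 0.07, FDR 2.8e-05). *Mir17hg*, the host transcript of a microRNA cluster, and *Prdm6*, a zinc finger protein of smooth muscle, were named after their values were seen. *Mir17hg* was at 30.5, 30.9, 24.3 and 23.1 CPM in the null controls and 37.03, 51.02, 44.1 and 50.1 CPM in the null transgenics (log2 fold change 0.74 ± 0.09, FDR 2.8e-04). *Prdm6* was at 4.98, 5.29, 4.43 and 3.69 CPM in the null controls and 9.29, 8.58, 8.14 and 8.50 CPM in the null transgenics (log2 fold change 0.86 ± 0.14, FDR 8.8e-04). *Nrip1*, a nuclear receptor corepressor, was lower in every null transgenic, at 124, 116, 125 and 125 CPM in the null controls and 96.2, 95.4, 91.3 and 90.96 CPM in the null transgenics (log2 fold change -0.39 ± 0.05, FDR 1.7e-04). The wild-type transgenics, at 77.4 to 92.8 CPM, were also below the wild types at 102 to 114 CPM.

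**Figure D2:**
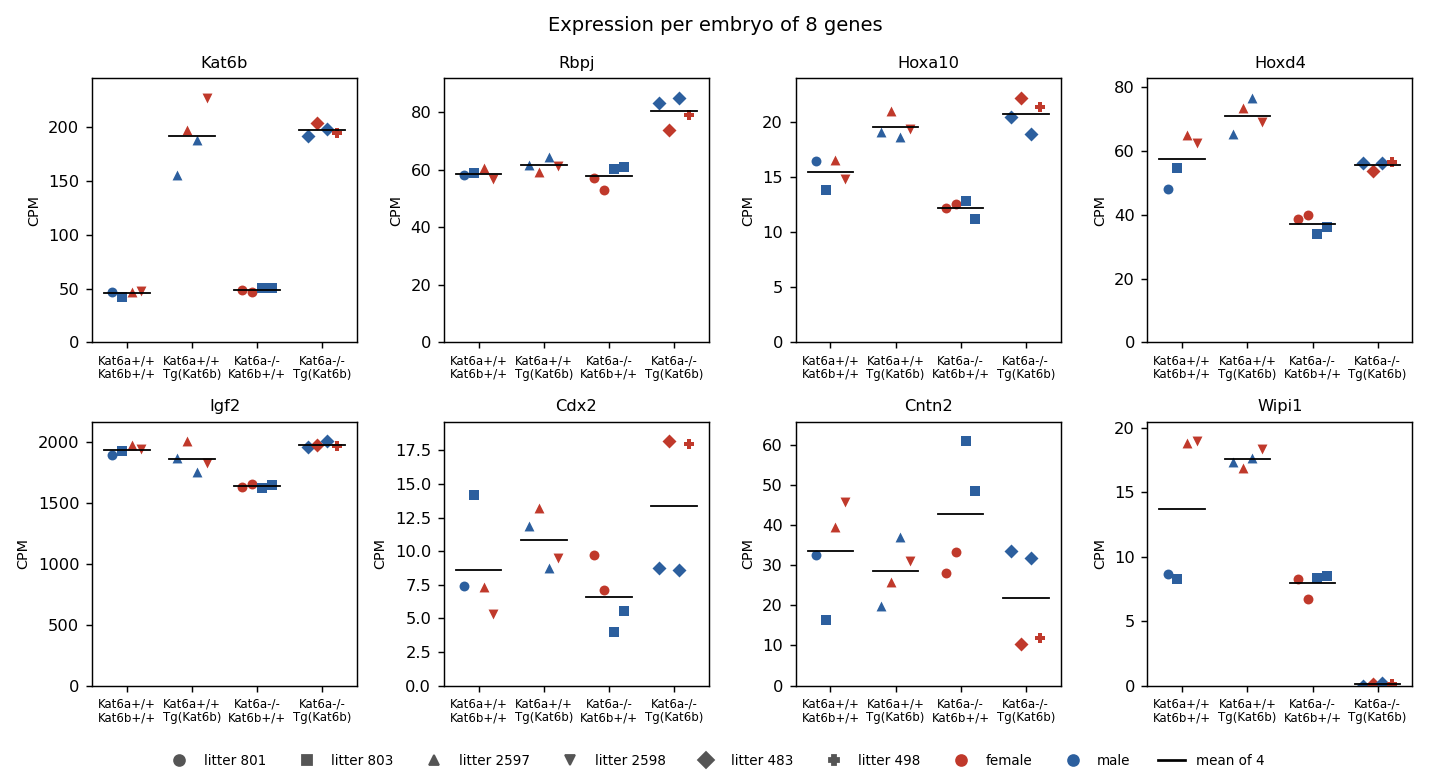
CPM (y, from 0) of 8 genes in each of the 16 embryos by genotype (x), with the marker shape giving the litter, the colour the sex and the bar the mean of 4. *Kat6b*, *Rbpj*, *Hoxa10*, *Hoxd4* and *Igf2* separate the *Kat6a-/-* groups in every embryo, *Cdx2* and *Cntn2* split the *Kat6a-/-Tg(Kat6b)* embryos by sex, and *Wipi1* differs between the litters of the wild types.

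*Hox* genes, which encode the transcription factors that give position along the body axis, were higher wherever they passed the test. Of 38 tested members 19 were called higher (50%) and none lower, against 3.39% and 3.74% of all tested genes. Of the 38, 37 had a positive log2 fold change, against 48.6% of all tested genes. Their median was 0.31, against -0.00 over all tested genes. Summed over the family the level was 689, 757, 725 and 699 CPM in the null controls and 907, 866, 869.6 and 886 CPM in the null transgenics. Every null transgenic was above every null control, and the wild types, at 822 to 867 CPM, reached the lowest null transgenic. Called genes came from all positions along the axis. By paralog group, 4 of 8 members of paralog groups 1 to 3, 4 of 7 of groups 4 and 5, 5 of 8 of groups 6 to 8 and 5 of 7 of groups 9 and 10 were higher. In groups 11 to 13 *Hoxa11* was the called gene of the 8 tested, and the median was 0.37. The family median was 0.26 in females, 0.35 in males and 0.30 with *Gm26917* as a covariate, where 7, 4 and 3 members were called. With 1 embryo left out the number higher was 13 to 23.

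*Hoxa10*, which acts in the lumbar region and the urogenital tract, was at 12.2, 12.6, 12.8 and 11.2 CPM in the null controls and 20.4, 22.2, 18.9 and 21.4 CPM in the null transgenics. All null transgenics lay above all null controls (log2 fold change 0.77 ± 0.08, FDR 3.8e-06) and above the wild types (13.9 to 16.5 CPM). *Hoxd4*, a gene of the hindbrain and neck boundary, was at 38.7, 39.8, 33.98 and 36.2 CPM in the null controls and 56.1, 53.7, 56.3 and 56.4 CPM in the null transgenics. Again there was no overlap (log2 fold change 0.62 ± 0.06, FDR 6.8e-06), and the null transgenics lay within the wild-type range of 47.9 to 65.01 CPM. *Hoxa6* (0.69 ± 0.10, FDR 2.4e-04), *Hoxb1* (0.49 ± 0.07, FDR 5.3e-04), *Hoxa5* (0.46 ± 0.08, FDR 0.0012), *Hoxb6* (0.47 ± 0.09, FDR 0.0052), *Hoxb9* (0.30 ± 0.05, FDR 0.0011) and *Hoxc10* (0.37 ± 0.07, FDR 0.003) were higher as well. The most abundant of them, *Hoxb9*, was at 78.4, 89.1, 91 and 90.5 CPM in the null controls and 105, 107, 106 and 113 CPM in the null transgenics. Counting the fits with 1 embryo left out that kept the call, calls were less firm for *Hoxd3* (11 of 16, FDR up to 0.094 without null transgenic 3), *Hoxb5* (10 of 16, FDR up to 0.17 without null transgenic 1), *Hoxd8* (10 of 16, FDR up to 0.16 without null control 1), *Hoxa11* (11 of 16, FDR up to 0.14 without null control 1), *Hoxa3* (14 of 16, FDR up to 0.055 without null transgenic 3) and *Hoxc9* (15 of 16, FDR up to 0.07 without null control 1). Exons of *Hoxa10* and *Hoxd4* overlap genes of the opposite strand over 19% and 11.7% of their bases. The library kit does not keep strand, so reads of the partner cannot be told apart there.

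The 250 bases before the start sites of *Hoxa10* (chr6:52217835-52218084, minus strand) and *Hoxd4* (chr2:74552072-74552321, plus strand) are shown because these were the *Hox* genes called in every fit above. The sequences are RefSeq promoters matched to GRCm39, 5' to 3', with capitals for the letters CCAAT or their reverse complement ATTGG, a box discussed with the cholesterol genes.
*Hoxa10*: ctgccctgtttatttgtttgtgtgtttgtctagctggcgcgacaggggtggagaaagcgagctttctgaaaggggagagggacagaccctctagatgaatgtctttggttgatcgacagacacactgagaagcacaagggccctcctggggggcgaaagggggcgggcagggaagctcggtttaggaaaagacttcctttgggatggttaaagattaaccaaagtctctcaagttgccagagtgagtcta
*Hoxd4*: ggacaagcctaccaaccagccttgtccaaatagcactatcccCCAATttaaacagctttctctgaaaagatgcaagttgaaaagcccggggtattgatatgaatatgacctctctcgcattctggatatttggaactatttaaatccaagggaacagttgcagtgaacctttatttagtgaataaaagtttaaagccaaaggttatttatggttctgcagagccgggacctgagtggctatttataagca
The window of *Hoxd4* holds 1 such box and that of *Hoxa10* none. Over the 22 tested *Hox* genes with a promoter in the table, 15 (68.2%) held CCAAT on either strand within 250 bases before to 50 after the start, against 42.8% of the 12088 tested genes with a promoter.

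Regulators of axial elongation at the tail end differed strongly within the null transgenics. Of 27 tested members 5 were higher (18.5%) and none lower (median 0.08), against 3.39% and 3.74% of all tested genes. *Cdx2*, the caudal homeobox gene that acts upstream of posterior *Hox* genes, was at 9.68, 7.12, 4.02 and 5.52 CPM in the null controls and 8.75, 18.2, 8.63 and 17.99 CPM in the null transgenics (log2 fold change 0.66 ± 0.10, FDR 8.3e-04). The females, null transgenics 2 and 4, were above the males 1 and 3, which lay within the range of the null controls. Surrogate variable 2 of the fit was at -0.41 and -0.33 in these females and 0.02 and 0.03 in these males. Log2 fold changes and FDR are given after adjustment for it. *Cdx4*, a paralog, was at 7.30, 4.56, 1.83 and 2.85 CPM in the null controls and 4.71, 13.6, 4.13 and 13.2 CPM in the null transgenics (log2 fold change 0.60 ± 0.18, FDR 0.045). *Nkx1-2*, a marker of the caudal epiblast, was at 3.87, 2.84, 2.54 and 3.13 CPM in the null controls and 4.36, 7.87, 4.19 and 7.40 CPM in the null transgenics (log2 fold change 0.65 ± 0.14, FDR 0.0083). Both had the same order. *Evx1*, a homeobox gene of the primitive streak and tail bud, was also higher (0.49 ± 0.14, FDR 0.033). *Wnt5a*, a ligand for outgrowth of the tail, limbs and arches, was higher in all 4, at 64.9 to 68.9 CPM in the null controls and 81.99, 100, 81.8 and 95.1 CPM in the null transgenics (log2 fold change 0.43 ± 0.05, FDR 9.6e-05). Among fits with 1 embryo left out, *Cdx4* (9 of 16, FDR up to 0.19 without null transgenic 4) and *Evx1* (11 of 16, FDR up to 0.12 without null transgenic 4) kept their calls in part, and the number higher was 3 to 7 (3 without wild type 3 or null control 2 or 4 or null transgenic 4).

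*Dlx* genes, homeobox genes of the pharyngeal arches, forebrain and limb ridge, were higher at 5 of 8 tested members and none lower (median 0.47). The share higher was 62.5%, against 3.39% of all tested genes. *Dlx6os1*, a long noncoding RNA of the *Dlx5*/*Dlx6* locus at chr6:6749740-6871632, was at 0.996, 1.43, 1.12 and 1.16 CPM in the null controls and 2.64, 2.27, 3.21 and 2.92 CPM in the null transgenics. It was higher in every null transgenic (log2 fold change 1.29 ± 0.17, FDR 1.7e-04) and still below every wild type (3.98 to 6.32 CPM). *Dlx2* was at 17.4, 17.4, 20.9 and 16.3 CPM in the null controls and 28.6, 21.4, 25.5 and 22.5 CPM in the null transgenics (log2 fold change 0.50 ± 0.08, FDR 0.001). *Dlx1* (0.76 ± 0.14, FDR 0.0037), *Dlx5* (0.43 ± 0.11, FDR 0.021) and *Dlx1as*, the antisense transcript of *Dlx1* (1.15 ± 0.30, FDR 0.023), were the others. The calls of *Dlx5* (12 of 16, FDR up to 0.068 without null transgenic 1) and *Dlx1as* (12 of 16, FDR up to 0.13 without null transgenic 3) were not kept in every fit with 1 embryo left out. Reads of *Dlx1* and *Dlx1as* cannot be separated where they overlap. Leaving out 1 embryo at a time, the number of *Dlx* genes higher was 3 to 6 (3 without null control 2 or 4).

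Genes of neural crest and pharyngeal arches were higher at 10 of 35 tested members (28.6%) and none lower (median 0.15). Of all tested genes 3.39% were higher and 3.74% lower. *Six2*, a gene of arch and kidney mesenchyme, was at 13.3, 13.1, 15.7 and 14.96 CPM in the null controls and 23.99, 20.3, 16.6 and 20.4 CPM in the null transgenics (log2 fold change 0.59 ± 0.10, FDR 0.0021). *Tbx1*, the T-box gene of pharyngeal arch development, was at 15.1, 12.3, 12.8 and 11.8 CPM in the null controls and 15.8, 16.6, 16.1 and 18.9 CPM in the null transgenics (log2 fold change 0.36 ± 0.08, FDR 0.0094). Every null transgenic was above every null control for both, and *Tbx1* stayed below every wild type (19.4 to 20.9 CPM). *Barx1*, a homeobox gene of arch and stomach mesenchyme (0.83 ± 0.18, FDR 0.019), *Msx2*, a target of BMP signalling (0.41 ± 0.09, FDR 0.012), and *Snai2*, a zinc finger factor of migrating crest (0.34 ± 0.08, FDR 0.014), were also higher. *Snai2*, *Barx1* and *Msx2* kept their calls in 14 of 16, 13 of 16 and 15 of 16 fits with 1 embryo left out (FDR up to 0.067, 0.057 and 0.0504). The number of arch genes higher was 5 to 12 (5 without null transgenic 1) with 1 embryo left out, 1 in females and 2 in males.

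Limb bud genes were higher at 8 of 24 tested members (33.3%), against 3.39% of all tested genes. Of the 24, 23 were positive, and the median was 0.19, against -0.00 over all tested genes. *Pitx1*, which specifies the hindlimb, was at 16.8, 19.96, 14.8 and 14.2 CPM in the null controls and 32.1, 30.9, 28.98 and 33.3 CPM in the null transgenics. *Tbx4*, its hindlimb partner, was at 3.98, 6.52, 6.38 and 6.14 CPM in the null controls and 11.6, 9.47, 13.01 and 10.4 CPM in the null transgenics. For neither gene did the groups overlap (*Pitx1*, 0.91 ± 0.15, FDR 0.0047; *Tbx4*, 1.02 ± 0.20, FDR 0.0092). *Tbx5*, the T-box gene of forelimb and heart, was at 11.7, 12.8, 12.8 and 11.2 CPM in the null controls and 18.01, 20.1, 19.4 and 20.5 CPM in the null transgenics (log2 fold change 0.66 ± 0.16, FDR 0.025), a call kept in 10 of 16 fits with 1 embryo left out (FDR up to 0.08 without null control 1). *Sp9*, a zinc finger factor of the apical ridge, was at 1.17 to 2.27 CPM in null controls and 2.94 to 3.56 CPM in null transgenics (1.07 ± 0.21, FDR 0.0043). Limb genes higher numbered 3 to 12 (3 without null transgenic 1, 4 without null control 4, 5 without null control 2 or null transgenic 4) in fits with 1 embryo left out. T-box genes as a family were higher at 4 of 12 tested members (*Tbx1*, *Tbx4*, *Tbx5* and *Tbx20*) and lower at none. Their share higher was 33.3%, against 3.39% of all tested genes. When 1 embryo was left out, 2 to 4 were higher (2 without null control 1 or 2 or null transgenic 3 or 4).

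Cardiac regulators were higher at 7 of 26 tested members, while none of the 29 heart muscle genes passed the test in either direction (medians 0.19 and -0.01). The share of cardiac regulators higher was 26.9%, against 3.39% of all tested genes. *Hand1*, a basic helix-loop-helix factor of left ventricle and body wall, was at 9.96, 14.4, 9.51 and 15.2 CPM in the null controls and 31.1, 24.04, 33.05 and 26.5 CPM in the null transgenics (log2 fold change 1.16 ± 0.23, FDR 0.015). *Gata6* (0.66 ± 0.14, FDR 0.019), *Tbx20* (0.48 ± 0.12, FDR 0.035), *Irx3* (0.17 ± 0.04, FDR 0.011) and *Irx5* (0.27 ± 0.06, FDR 0.009) were higher too. The call of *Tbx20* was kept in 10 of 16 fits with 1 embryo left out (FDR up to 0.087 without null control 1). Of these genes *Hand1*, *Gata6* and *Irx3* are also among the 6 called of 22 tested genes of lateral plate and body wall mesoderm (median 0.21), with *Barx1* and *Nkx2-3* (0.75 ± 0.17, FDR 0.01), a gene of gut mesenchyme. That lateral plate list had 27.3% of its members higher, against 3.39% of all tested genes. Without 1 embryo it had 5 to 10 (10 without wild-type transgenic 3) genes higher. Summed heart muscle RNA was 2411, 2862, 2677 and 2837 CPM in the null controls and 2601, 2879, 2679 and 2868 CPM in the null transgenics, with overlapping ranges.

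**Figure D3:**
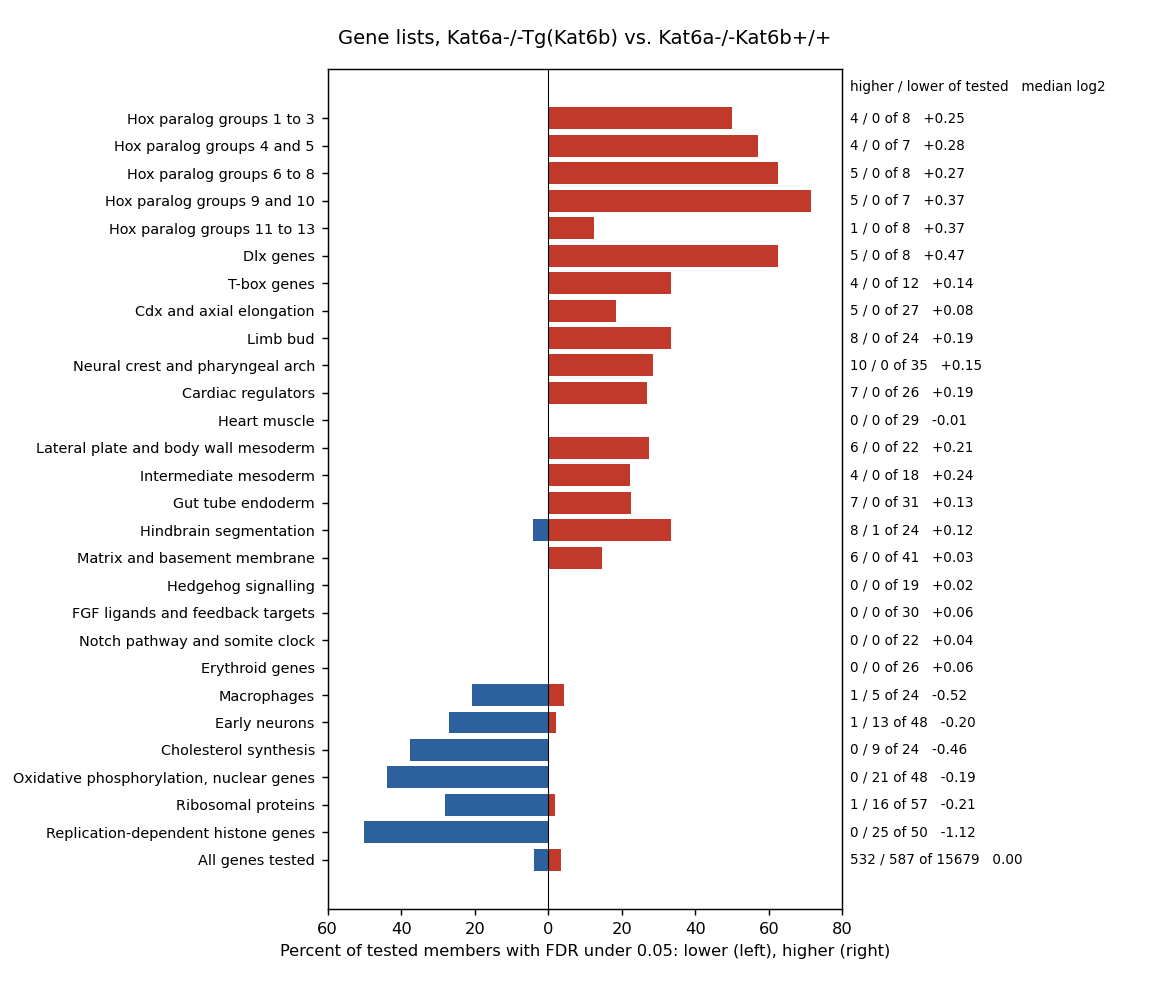
Percent of the tested members of 27 gene lists, and of all tested genes, with FDR under 0.05, lower in *Kat6a-/-Tg(Kat6b)* embryos to the left (blue) and higher to the right (red), with counts and the median log2 fold change beside each bar. Hox, Dlx, limb, arch and cardiac regulator lists extend only to the right, and histone, cholesterol and oxidative phosphorylation lists only to the left, against 3.39% and 3.74% of all genes.

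Called genes of the endoderm, intermediate mesoderm and hindbrain lists, which share members with the lists above, were nearly all higher. Of 31 gut tube genes 7 were higher (22.6%) and none lower, against 3.39% and 3.74% of all tested genes. *Krt18* and *Krt8*, keratins of simple epithelia, were in the same list (*Krt18*, 0.24 ± 0.06, FDR 0.024, kept in 13 of 16 fits with 1 embryo left out). The visceral endoderm and liver bud list had a median of 0.43 and 15 of 30 tested members whose groups did not overlap, all with the null transgenics higher, where 7.29% of all tested genes were so. Of these 30, 3 passed the test, all higher (10%, against 3.39% of all tested genes). Among them were *Dab2*, an endocytic adaptor (0.26 ± 0.05, FDR 0.0027), and *Serpina6*, the corticosteroid carrier (3.53 ± 0.92, FDR 0.034). *Serpina6* had at most 5 counts in any null control. The calls of *Serpina6* (9 of 16, FDR up to 0.105 without null transgenic 3) and *Cyp26c1* (9 of 16, FDR up to 0.14 without null transgenic 4) were kept in part of the fits with 1 embryo left out. Summed visceral endoderm RNA was 249, 251, 249 and 274 CPM and 291, 316, 322 and 312 CPM, with no overlap. In the intermediate mesoderm 4 of 18 were higher (22.2%, against 3.39% of all tested genes), among them *Six2* and *Lhx1*. Among fits that left out 1 embryo, the number higher was 4 to 9 (4 without null control 2 or null transgenic 3 or 4) for gut tube, 2 to 7 (7 without wild-type transgenic 3) for visceral endoderm, 3 to 7 (7 without wild-type transgenic 3) for intermediate mesoderm and 5 to 8 (5 without null transgenic 3) for hindbrain genes. In the hindbrain list 8 of 24 were higher (33.3%) and 1 lower (4.17%), against 3.39% and 3.74% of all tested genes. The higher ones included *Hoxb1* and *Cyp26b1* and *Cyp26c1*, which degrade retinoic acid. *Cyp26b1* was at 27.4, 25, 22.5 and 25.9 CPM in the null controls and 34.01, 31.7, 33.3 and 33.2 CPM in the null transgenics (log2 fold change 0.39 ± 0.07, FDR 0.002). Of 19 tested genes of the retinoic acid pathway these enzymes were higher and *Crabp2*, a carrier of retinoic acid, was lower (-0.20 ± 0.04, FDR 0.0096). The shares were 10.5% and 5.26%, against 3.39% and 3.74% of all tested genes.

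Several extracellular matrix genes of mesenchyme were higher in the null transgenics. *Postn*, periostin, was at 21.5, 20.1, 20.03 and 22.04 CPM in the null controls and 78.5, 51.8, 122 and 53.97 CPM in the null transgenics, each above every other embryo of the series (log2 fold change 1.87 ± 0.31, FDR 0.007). The males 1 and 3 were highest. *Col1a1*, a chain of type I collagen, was at 174, 191, 164 and 185 CPM in the null controls and 322, 248, 469 and 239 CPM in the null transgenics (log2 fold change 0.86 ± 0.19, FDR 0.025), a call kept in 12 of 16 fits with 1 embryo left out (FDR up to 0.057). *Dcn*, a small proteoglycan, was at 1.83, 2.84, 3.37 and 3.72 CPM in the null controls and 6.20, 3.16, 7.34 and 4.04 CPM in the null transgenics (log2 fold change 0.92 ± 0.16, FDR 0.0017), where null transgenic 2 overlapped the null controls. *Prss35*, a secreted protease-like protein, was at 1.55, 2.37, 1.77 and 1.77 CPM in the null controls and 4.96, 4.09, 8.08 and 4.00 CPM in the null transgenics (log2 fold change 1.49 ± 0.21, FDR 3.4e-04). *Dkk2*, a modulator of Wnt signalling, was at 4.92, 4.56, 4.85 and 4.85 CPM in the null controls and 7.06, 6.71, 12.8 and 7.05 CPM in the null transgenics (log2 fold change 0.84 ± 0.16, FDR 0.0038), with null transgenic 3 far above the rest. *Fbln5* (0.72 ± 0.15, FDR 0.0056), *Lum* (0.35 ± 0.08, FDR 0.01) and *Sparc* (0.20 ± 0.05, FDR 0.013) were also called. In all 6 of 41 matrix genes (median 0.03) and 3 of 37 collagens were higher, with 1 collagen lower, against 3.39% and 3.74% of all tested genes. Leaving out 1 embryo, matrix genes higher numbered 5 to 8 and collagens 1 to 4 (1 without null control 1 or null transgenic 3). *Lum* lost its call without null transgenic 3 (FDR 0.054). *Col1a2* was higher overall (0.23 ± 0.04, FDR 0.0043) but its log2 fold change in females was -0.015.

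Signalling genes moved in small numbers, to be read beside 3.39% higher and 3.74% lower of all tested genes. Of 32 tested Wnt ligands and antagonists 4 were higher (*Wnt5a*, *Dkk2*, *Sfrp1* and *Frzb*), and of 28 Wnt targets and receptors 5, led by *Lrp5*, a coreceptor (0.24 ± 0.04, FDR 0.003). The latter number was 3 to 6 (3 without null control 2) without 1 embryo. Of 29 genes of BMP and TGF-beta signalling 5 were higher, among them *Gdf6*, a BMP family ligand (0.59 ± 0.15, FDR 0.023), but with 1 embryo left out the number was 0 to 7 (0 without null transgenic 1, 1 without null transgenic 3, 2 without null control 1 or 4 or null transgenic 2, 3 without null control 3 or null transgenic 4). None of the 19 Hedgehog, 30 FGF or 22 Notch and somite clock genes passed the test. *Kit*, the receptor of stem cell factor, was at 31.9, 30.7, 27.4 and 29.8 CPM in the null controls and 35.95, 43.1, 37.9 and 42.1 CPM in the null transgenics (log2 fold change 0.40 ± 0.06, FDR 5.0e-04). Its lists did not move with it. Of 31 blood stem and progenitor genes 2 were higher (6.45%) and none lower, 13 were positive and the median was -0.05. Of 18 germline and meiosis genes *Kit* was the 1 called (5.56%), 6 were positive and the median was -0.17.

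Imprinted genes were higher at 8 (16%) and lower at 2 (4%) of 50 tested, where 3.39% and 3.74% of all tested genes were so. *Igf2*, the paternally expressed growth factor, was at 1632, 1655, 1623 and 1647 CPM in the null controls and 1963, 1974, 2007 and 1968 CPM in the null transgenics. The null transgenics reached the wild-type level of 1893 to 1977 CPM, and the spread within each group was small (log2 fold change 0.27 ± 0.03, FDR 4.8e-05). *Phlda2*, a maternally expressed placental growth inhibitor, was at 2.49, 1.54, 0.827 and 1.41 CPM in the null controls and 2.93, 6.22, 2.65 and 5.42 CPM in the null transgenics (log2 fold change 1.20 ± 0.20, FDR 0.0013), with the females highest. *Mest* (0.16 ± 0.03, FDR 0.0042) and *Dcn* were higher too, and *Cdkn1c*, a maternally expressed cyclin-dependent kinase inhibitor, was lower (-0.20 ± 0.04, FDR 0.0058). It was at 304, 336, 336 and 339.9 CPM in the null controls and at 313, 251, 299.9 and 252 CPM in the null transgenics, of which the females were lowest. *Ccnd2*, cyclin D2, was lower in every null transgenic, at 790.0, 788, 781 and 819 CPM in the null controls and 682, 663, 672 and 604 CPM in the null transgenics (log2 fold change -0.27 ± 0.04, FDR 2.3e-04). The wild-type transgenics (635 to 703 CPM) were likewise below the wild types (751 to 782 CPM). *Mdm2*, the negative regulator and target of p53, was higher (0.20 ± 0.04, FDR 0.0091), with 3 higher (10.3%) and 2 lower (6.90%) of 29 p53 targets. The number of p53 targets higher was 1 to 3 (1 without null control 1 or 2 or null transgenic 1) without 1 embryo.

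Genes of early neurons were lower at 13 of 48 tested members, and 1, *Lhx1*, was higher (0.63 ± 0.13, FDR 0.007). The shares were 27.1% lower and 2.08% higher, against 3.74% and 3.39% of all tested genes. The list median was -0.20, against -0.00 over all tested genes. *Cntn2*, an adhesion molecule of the first axons, was at 28.1, 33.3, 60.9 and 48.5 CPM in the null controls and 33.6, 10.3, 31.7 and 11.9 CPM in the null transgenics (log2 fold change -0.65 ± 0.07, FDR 3.5e-05). The female null transgenics 2 and 4 were lowest and the males 1 and 3 lay within the range of the null controls, so the groups overlapped. These females also stood apart from these males in surrogate variable 2, for which the log2 fold change and FDR are adjusted. *Tubb3*, neuronal tubulin, was at 106, 115, 131 and 127 CPM in the null controls and 103, 68.7, 105 and 69.8 CPM in the null transgenics (log2 fold change -0.36 ± 0.05, FDR 4.9e-04). *Nefm* (-0.48 ± 0.06, FDR 9.6e-05), *Nefl* (-0.41 ± 0.07, FDR 0.0012), *Ina* (-0.36 ± 0.07, FDR 0.003) and *Map2* (-0.37 ± 0.05, FDR 3.2e-04), which build the neuronal cytoskeleton, were also lowest in null transgenics 2 and 4. Summed over the list, RNA was at 1359, 1406, 1747 and 1717 CPM in the null controls and 1392, 1029, 1372 and 1015 CPM in the null transgenics. Wild types had 1598 and 1203 CPM in the males 1 and 2 and 1594 and 1553 CPM in the females 3 and 4. Wild-type transgenics had 1097 and 1528 CPM in the males 1 and 3 and 1240 and 1317 CPM in the females 2 and 4. Females were thus not lower throughout, and a part of sex was not tested. The median was -0.44 in females, where 8 genes were lower, and -0.18 in males, where none was. The number lower was 7 to 19 (7 without null transgenic 4) with 1 embryo left out. Neural tube progenitor genes had 2 higher and 2 lower of 39 (median 0.00), the lower ones being *Zic1* and *Nes*, an intermediate filament of progenitors (-0.19 ± 0.04, FDR 0.01). These shares, 5.13% each way, were near the 3.39% and 3.74% of all tested genes.

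Macrophage genes were lower at 5 of 24 tested members and higher at 1, *Dab2*, which visceral endoderm also expresses (median -0.52). The shares were 20.8% lower and 4.17% higher, against 3.74% and 3.39% of all tested genes. Summed over the list, *Dab2* included, the ranges overlapped. The sums were 170, 185, 189 and 193 CPM in the null controls and 185, 166, 179 and 175 CPM in the null transgenics. *Mrc1*, the mannose receptor, was at 3.71, 4.87, 8.51 and 6.76 CPM in the null controls and 3.60, 2.13, 2.77 and 2.15 CPM in the null transgenics (log2 fold change -0.90 ± 0.21, FDR 0.015). All null controls were above all null transgenics and above all wild types (1.27 to 3.48 CPM). *Laptm5*, a lysosomal protein of blood cells, was at 8.69, 11.9, 10.8 and 11.2 CPM in the null controls and 8.05, 5.2, 6.91 and 6.88 CPM in the null transgenics (log2 fold change -0.54 ± 0.12, FDR 0.012). The complement genes *C1qb* (-1.42 ± 0.40, FDR 0.035) and *C1qc* (-1.56 ± 0.47, FDR 0.047) and *F13a1* (-1.14 ± 0.34, FDR 0.042) were lower at low depth, with at most 73, 51 and 79 counts in any null control. Their calls were kept in 13 of 16, 6 of 16 and 9 of 16 fits with 1 embryo left out, and the number of macrophage genes lower was 1 to 6 (1 without null transgenic 3, 2 without null control 2 or 4 or null transgenic 2 or 4, 3 without wild type 4). The medians in females and males were -0.73 and -0.70.

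Cholesterol synthesis genes were lower at 9 of 24 tested members (37.5%), against 3.74% of all tested genes. All 24 log2 fold changes were negative and the median was -0.46, against -0.00 over all tested genes. The groups did not overlap for 20 of the 24, all with the null transgenics lower, where 7.94% of all tested genes were so. *Hsd17b7*, which reduces a sterol ketone, was at 56.3, 54.4, 50.05 and 47.97 CPM in the null controls and 37.8, 34, 39.03 and 33.5 CPM in the null transgenics (log2 fold change -0.56 ± 0.09, FDR 0.002). *Fdps*, farnesyl diphosphate synthase, was at 89.7, 66.6, 65.95 and 65.1 CPM in the null controls and 52.6, 48.7, 51.6 and 46.5 CPM in the null transgenics (log2 fold change -0.60 ± 0.15, FDR 0.038). *Mvd* (-0.46 ± 0.10, FDR 0.017) and *Mvk* (-0.42 ± 0.10, FDR 0.023), enzymes of the mevalonate pathway, and *Srebf2*, a transcription factor of sterol synthesis, were also lower. Summed over the list, RNA was at 3514, 2995, 2835 and 2778 CPM in the null controls and 2549, 2168, 2433 and 2166 CPM in the null transgenics. Wild types 1 to 4 were at 3416, 2880.0, 2165 and 2117 CPM, the one of litter 801 near the null controls of litter 801 and those of litters 2597 and 2598 near the null transgenics. The part of the litter in these values was not tested. In females 22 genes were lower (median -0.60), in males none (median -0.16). With 1 embryo left out the number lower was 1 to 19 (1 without null control 1, 2 without null control 2 or null transgenic 2 or 4, 4 without wild type 3 or null control 3 or wild-type transgenic 2 or 3, 5 without wild type 4 or wild-type transgenic 4 or null transgenic 1 or 3, 19 without wild type 1). The calls of *Fdps* (5 of 16, FDR up to 0.1 without null control 1) and *Mvk* (12 of 16, FDR up to 0.069 without null control 1) were among those lost.

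Promoters of 2 of these enzymes and of the linker histone gene *H1f5* are shown because both lists were lower and most of their windows hold the same short box. They are the 250 bases before the start site of *Hsd17b7* (chr1:169796775-169797024, minus strand), *Mvd* (chr8:123170162-123170411, minus strand) and *H1f5* (chr13:21964796-21965045, minus strand) from RefSeq, matched to GRCm39, with CCAAT or ATTGG in capitals.
*Hsd17b7*: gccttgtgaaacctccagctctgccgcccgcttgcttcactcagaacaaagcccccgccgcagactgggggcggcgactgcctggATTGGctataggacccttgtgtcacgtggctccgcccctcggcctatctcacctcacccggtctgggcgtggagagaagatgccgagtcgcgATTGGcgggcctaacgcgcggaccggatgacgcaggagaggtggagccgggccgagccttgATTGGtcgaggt
*Mvd*: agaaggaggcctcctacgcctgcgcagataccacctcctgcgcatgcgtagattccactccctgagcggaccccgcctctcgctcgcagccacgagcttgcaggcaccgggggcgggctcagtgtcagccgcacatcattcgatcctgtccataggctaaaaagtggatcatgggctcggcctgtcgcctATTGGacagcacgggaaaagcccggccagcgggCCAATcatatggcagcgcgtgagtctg
*H1f5*: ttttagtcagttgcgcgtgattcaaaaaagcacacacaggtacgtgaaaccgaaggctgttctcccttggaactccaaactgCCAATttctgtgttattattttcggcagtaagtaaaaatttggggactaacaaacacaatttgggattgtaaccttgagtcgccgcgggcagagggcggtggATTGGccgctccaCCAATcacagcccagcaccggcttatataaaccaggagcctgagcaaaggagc
They hold 3, 2 and 3 boxes. CCAAT is known as the binding site of the trimeric factor NF-Y. On either strand of the 300-base windows it was present for 16 of 16 cholesterol genes and 40 of 46 histone genes with a promoter in the table, where divergent histone pairs share windows, and for 42.8% of tested genes. It was present for 15 of 35 early neuron genes (7 of the 10 called) and 14 of 42 ribosomal protein genes. The sterol element TCACNCCAC was in 1 of 16 cholesterol windows, against 1.42% of tested genes. A match is a description of these letters, and no binding was measured.

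Histone genes whose mRNA mostly ends in a stem-loop rather than a poly(A) tail were lower at 25 of 50 tested members (50%). Of all tested genes 3.74% were lower. All 50 histone genes were negative and the median was -1.12, against -0.00 over all tested genes. *H1f5* was at 2.32, 2.16, 1.06 and 1.21 CPM in the null controls and 0.191, 0.267, 0.3699 and 0.439 CPM in the null transgenics (log2 fold change -2.74 ± 0.33, FDR 4.8e-05). *H1f4* was at 4.09, 4.43, 1.12 and 2.11 CPM in the null controls and 0.350, 0.578, 0.678 and 0.198 CPM in the null transgenics (log2 fold change -3.09 ± 0.45, FDR 0.0011). Null controls 1 and 2 had the highest values of all 16 embryos for both. *H3c3* (-1.10 ± 0.22, FDR 0.0056), *H2bc18* (-2.99 ± 0.54, FDR 0.0024) and *H1f3* (-2.02 ± 0.35, FDR 0.0018) were also lower. Near-identical copies make single histone genes uncertain, and *H2bc18* lies over its whole length within exons of a gene on the opposite strand. *H1f0*, a replacement linker histone with a poly(A) tail and by far the most abundant of the list, was lower by less, at 457, 428, 398 and 429 CPM in the null controls and 354, 370.5, 351 and 349 CPM in the null transgenics (log2 fold change -0.30 ± 0.05, FDR 9.0e-04). Of 4 tested RNAs outside the histones that lack a poly(A) tail or were grouped with them, a list chosen after values were seen, 3 were lower. *Rn7sk*, the 7SK RNA, was at 8.41, 8.76, 1.54 and 4.42 CPM in the null controls and 0.605, 0.533, 0.925 and 0.373 CPM in the null transgenics (log2 fold change -3.59 ± 0.71, FDR 0.015). *Rpph1*, the RNA of RNase P (-1.89 ± 0.40, FDR 0.0091), of whose bases 86.8% overlap *Parp2* on the opposite strand, and *Gm26917* were the others. The part of the library composition shown by *Gm26917* in the histone values was not tested. The histone median was -1.38 in females, -0.58 in males, -0.71 without the litter 801 controls and -0.48 with *Gm26917* as a covariate, with 16, 0, 1 and 0 genes lower. With 1 embryo left out the number lower was 13 to 28 (13 without null transgenic 4, 14 without null control 1, 15 without null control 2 or null transgenic 2).

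**Figure D4:**
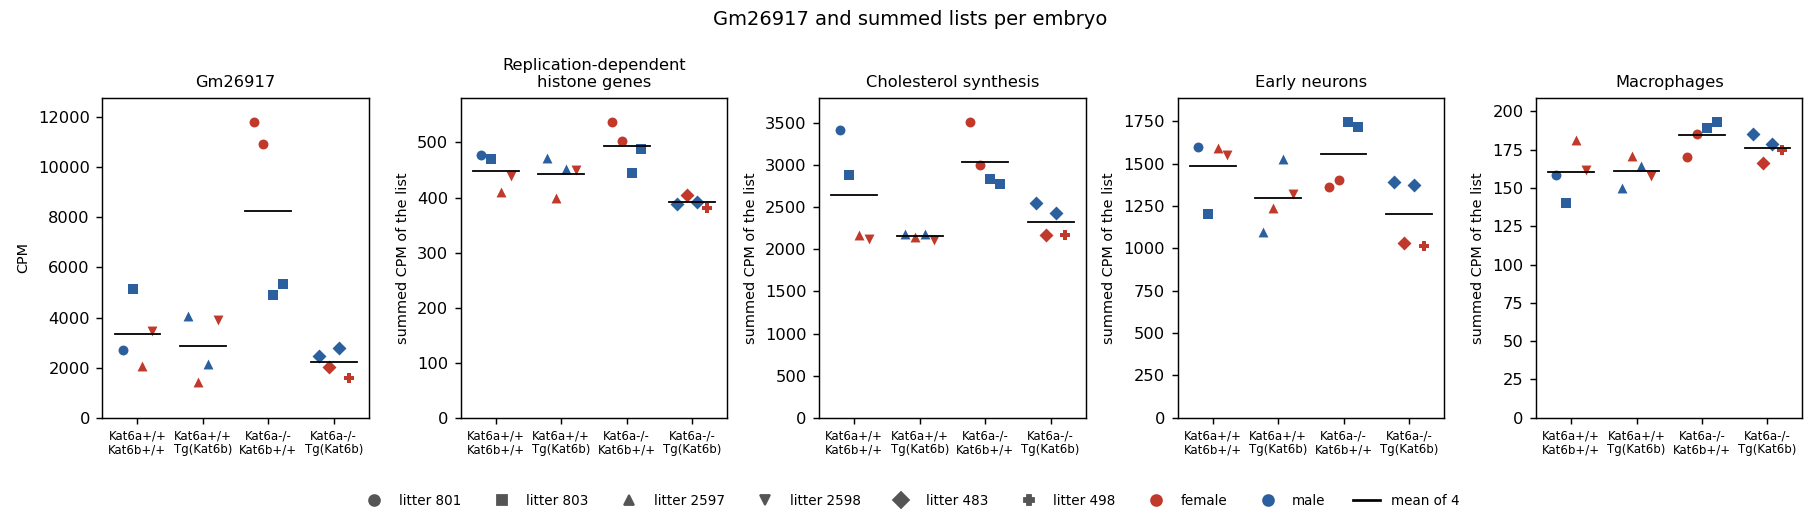
CPM of *Gm26917* and summed CPM of 4 gene lists (y, from 0) in each of the 16 embryos by genotype (x), with shapes for litters, colours for sex and a bar for the mean of 4. The histone sum is mostly *H1f0*, a replacement histone with a poly(A) tail, and shows little of the stem-loop histone genes. *Gm26917* is highest in the null controls of litter 801, the cholesterol sums of embryos of litter 801 are the highest (up to 3514 CPM), and the early neuron sums of the female *Kat6a-/-Tg(Kat6b)* embryos are the lowest of all (down to 1015 CPM).

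Ribosomal protein genes were lower at 16 and higher at 1 of 57 tested, and nuclear genes of oxidative phosphorylation lower at 21 of 48 and higher at none, with medians of -0.21 and -0.19. The shares lower were 28.1% and 43.8%, against 3.74% of all tested genes. Most of these transcripts are short. With gene length offsets the medians were -0.07 and -0.04, with 10 genes lower in each list and 6 and 1 higher. *Ndufb7*, a subunit of complex I, was at 50.7, 49.6, 49.4 and 48.1 CPM in the null controls and 37.5, 38.8, 39.1 and 37.7 CPM in the null transgenics (log2 fold change -0.38 ± 0.07, FDR 0.0017). *Cox8a*, a subunit of complex IV, was at 143, 132, 126 and 128 CPM in the null controls and 111, 108, 107 and 114 CPM in the null transgenics (log2 fold change -0.29 ± 0.05, FDR 0.0028). With length offsets *Ndufb7* was at -0.11 (FDR 0.12) and *Cox8a* at -0.02 (FDR 0.75). *Rpl28* was the ribosomal gene that was higher, at 32.5, 36.96, 35.1 and 29.1 CPM in the null controls and 50.2, 47.9, 49.5 and 49.7 CPM in the null transgenics (log2 fold change 0.56 ± 0.08, FDR 9.8e-04). Over 43.1% of its exon bases it overlaps *Ube2s* on the opposite strand, so its reads are uncertain, and processed copies make single ribosomal genes uncertain too. With 1 embryo left out the number lower was 0 to 27 (0 without null control 1, 3 without null transgenic 2, 5 without null transgenic 1 or 4, 7 without null control 3, 8 without null transgenic 3, 9 without null control 2, 26 without wild-type transgenic 2, 27 without wild-type transgenic 1) for ribosomal proteins and 7 to 28 (7 without null control 1, 10 without null transgenic 4, 11 without null transgenic 2, 12 without null control 3 or null transgenic 1) for oxidative phosphorylation.

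Among the 13 mitochondrially encoded mRNAs, a list chosen after values were seen, 6 were lower (46.2%, against 3.74% of all tested genes) and none higher. *COX3*, a subunit of complex IV, was at 896, 903, 918 and 982 CPM in the null controls and 652, 659, 772 and 648 CPM in the null transgenics. The null transgenics were below all other 12 embryos, none of which was under 886 CPM (log2 fold change -0.43 ± 0.04, FDR 3.4e-06). The sum of the 13 was 10869, 12107, 12546 and 14515 CPM and 9199.7, 9255, 12420.2 and 9056 CPM, where null transgenic 3 lay with the null controls.

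Some of the largest differences also set litters apart in wild types. *Wipi1*, an autophagy protein that binds phosphoinositides, at chr11:109464156-109502793, was at 8.24, 6.70, 8.33 and 8.48 CPM in the null controls and 0, 0.133, 0.185 and 0.110 CPM in the null transgenics. It was nearly absent from the null transgenics, with at most 5 counts, and the fitted value (log2 fold change -6.10 ± 0.38, FDR 7.2e-07) depends on the prior count. Wild types of litters 801 and 803 had 8.62 and 8.29 CPM and those of litters 2597 and 2598 18.8 and 18.9 CPM. *5830417I10Rik*, a transcribed pseudogene at chr3:88682523-88732894 (plus strand), was at 33.6, 29.7, 30.6 and 32.7 CPM in the null controls and 81.6, 86.8, 79.3 and 83.7 CPM in the null transgenics (log2 fold change 1.43 ± 0.28, FDR 0.015). *1500004A13Rik*, a long noncoding RNA on the other strand at chr3:88690250-88742502, was also higher (2.66 ± 0.61, FDR 0.027). Exons of the pair overlap over 78.1% of *5830417I10Rik*, so their reads cannot be told apart. In wild types *5830417I10Rik* was at 33.4, 76.9, 77.4 and 72.3 CPM, low in the wild type of litter 801. *S100a16*, a calcium-binding protein at chr3:90444172-90450462 (0.98 ± 0.27, FDR 0.047), was at 2.74, 6.52, 6.07 and 6.87 CPM in wild types, with the same embryo low. *Crabp2* (chr3:87855973-87860683), *Nes* (chr3:87878385-87887758) and *Fdps* (chr3:89000888-89019213), named above, lie on the same stretch. The part of the litter in their values was not tested. *S100a16* and *1500004A13Rik* kept their calls in 6 of 16 and 8 of 16 fits with 1 embryo left out.

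Genes with small p-values among those lower included further functions. *Rasl2-9*, a Ran-like intronless gene, was at 8.74, 7.40, 6.796 and 6.62 CPM in the null controls and 2.70, 2.84, 2.96 and 2.90 CPM in the null transgenics (log2 fold change -1.44 ± 0.14, FDR 3.8e-06). Its reads can be shared with the near-identical *Ran*. *Gtf2a1*, a subunit of the general factor TFIIA, was at 71.5, 66.6, 65.1 and 69.05 CPM in the null controls and 49.4, 52.1, 52.2 and 51.3 CPM in the null transgenics (log2 fold change -0.46 ± 0.06, FDR 7.9e-05). *Tcim*, a regulator of Wnt signalling (-0.68 ± 0.09, FDR 9.6e-05), and *Dach2*, a transcriptional cofactor of muscle and eye regulators (-0.59 ± 0.08, FDR 1.6e-04), were lower in every null transgenic. Of 28 tested heat shock and immediate early genes 4 were lower (14.3%, against 3.74% of all tested genes), among them *Jun* (-0.16 ± 0.04, FDR 0.019) and *Egr1* (-0.41 ± 0.11, FDR 0.031). Of 31 genes of the ATF4 and unfolded protein responses 5 were lower (16.1%), including *Sdf2l1* (-0.33 ± 0.06, FDR 0.0043) and *Slc7a11*, the cystine transporter (-0.55 ± 0.11, FDR 0.0058). In that list 2 were higher (6.45%, against 3.39% of all tested genes). Leaving out 1 embryo, the number of immediate early and heat shock genes lower was 0 to 5 (0 without null transgenic 3 or 4, 1 without null control 1 or 2, 2 without null transgenic 2) and that of ATF4 and unfolded protein response genes 3 to 6 (3 without wild type 3 or null control 1 or 2 or 4 or wild-type transgenic 2 or 4 or null transgenic 2 or 4). *Jun* and *Egr1* kept their calls in 13 of 16 and 10 of 16 fits with 1 embryo left out.

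Whether the transgene acted differently without KAT6A than with it was tested by the difference between the transgene effects in the null and the wild-type state, over all 16 embryos. The null groups share no litter, and only some wild types share one with the wild-type transgenics. Differences of litter therefore enter this test and cannot be told apart from a role of KAT6A. A total of 24 genes passed (0.153% of those tested, 16 with a larger value without KAT6A and 8 with a smaller one), while 2284 had an unadjusted p under 0.05. Of the 24, 20 were also called between the null groups. *Rbpj* differed by 0.43 on the log2 scale (FDR 0.0021), *Dlx6os1* by 1.11 (FDR 0.04), *Steap2* by 0.76 (FDR 0.0021), *Igf2* by 0.33 (FDR 0.0021) and *Dcn* by 1.25 (FDR 0.018). Lower without KAT6A were *H1f5* at -3.39 (FDR 0.0031), *COX3* at -0.40 (FDR 0.0022) and *Wipi1* at -6.46 (FDR 6.3e-06). *Kat6b* (0.03, FDR 0.93), *Hoxa10* (0.45, FDR 0.11) and *Hoxd4* (0.33, FDR 0.13) did not pass. With 1 embryo left out the number that passed was 16 to 81 (45 without wild-type transgenic 3, 81 without wild-type transgenic 2).

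Of the 64 lists, 29 had called members only higher, 6 only lower, 18 both and 11 none, the last being the Pou, Sox and forkhead factors, Hedgehog, FGF and Notch signalling, heart muscle, globins, erythroid genes, decidua and cell adhesion. Globin RNA summed to 2999, 4739, 4865 and 5765 CPM in the null controls and 4119, 3770.0, 4559 and 3853 CPM in the null transgenics. Of 22 decidua and uterus markers 14 were too low to test, and the summed level of the list was 109 to 132 CPM and 130.3 to 133 CPM. Females and males gave list medians of the same sign for the *Hox*, *Dlx*, limb, arch and macrophage lists, while the cholesterol, histone and neuron medians were further from 0 in females. The female null controls were of litter 801 and the male ones of litter 803, so sex and litter cannot be told apart here.

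**Figure D5:**
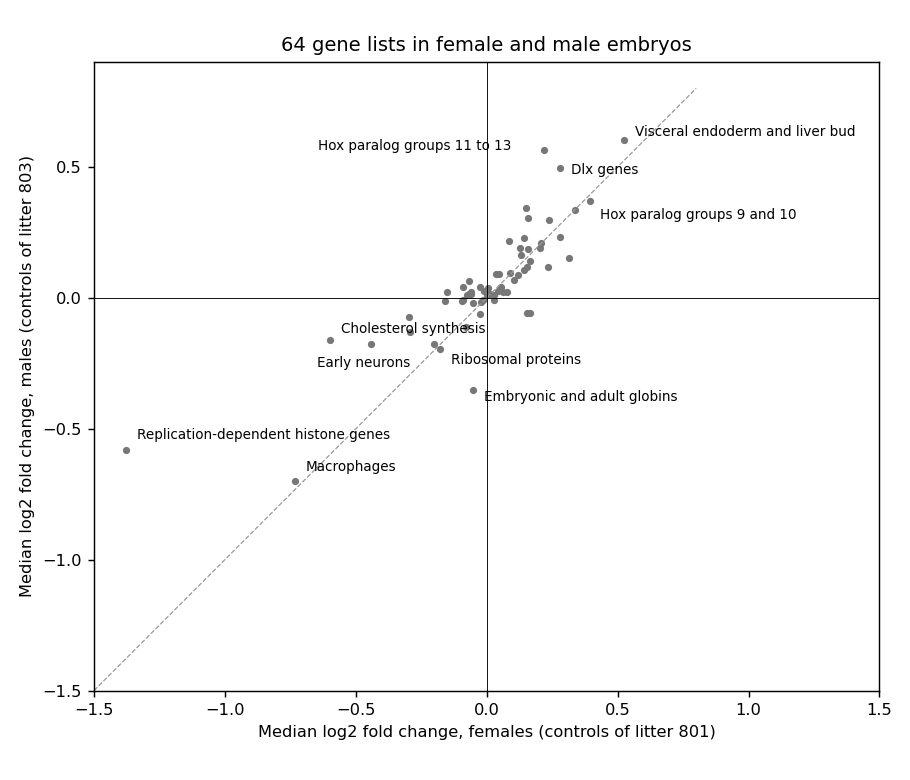
Median log2 fold change of each of 64 gene lists between *Kat6a-/-Tg(Kat6b)* and *Kat6a-/-Kat6b+/+* embryos in the 4 females (x) and in the 4 males (y), 1 point per list, with the dashed line marking equal values. Macrophage (-0.73 and -0.70) and Hox paralog 9 and 10 lists (0.39 and 0.37) lie near the line, and cholesterol synthesis (-0.60 and -0.16) and histone genes (-1.38 and -0.58) lie above it. The controls were of litter 801 in females and litter 803 in males, so sex and litter cannot be told apart.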

How the data were processed

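TruSeq RNA v2 libraries, which keep no strand, were made from 16 whole embryos and read from both ends. The authors aligned reads to mm39 with Rsubread, their processing notes name bcl2fastq and featureCounts, and they deposited raw counts per gene with lengths and Entrez identifiers. The annotation release is not given in the sources used here.

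From the counts, edgeR 4.0.16 in R 4.3.3 kept genes by filterByExpr (minimum count 10, minimum total 15), scaled by TMM and fitted its quasi-likelihood model (robust) to all 16 libraries, adding 2 surrogate variables (sva 3.50.0, at most 4 tried, 20 permutations, log2 CPM with prior count 2). P-values were adjusted by Benjamini-Hochberg over 15679 genes. Replicates are separate embryos, and no pair of libraries was identical. The 8 libraries held 16091022 to 45665680 counts, which limits genes below about 1 CPM. DESeq2 1.42.0 and limma 3.58.1 were alternatives.

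Groups, sex and litter came from the labels. The comparison, the 64 lists and the tests were chosen with earlier results of these data known. Named genes were, by rule, the 15 largest changes each way among called genes with non-overlapping CPM and average log2 CPM of at least 0, the 10 smallest p-values each way, *Kat6a*, *Kat6b* and its neighbours, up to 6 members of each list by p, up to 10 genes by the test of the difference, and *Wipi1*. The text gives part of these, and *Mir17hg*, *Prdm6*, the noncoding RNA list, the mitochondrial list, the fits without litter 801 controls, with *Gm26917* as covariate and with the number of surrogate variables held at 2 were added after seeing the data. Positions are from GENCODE (GRCm39) by symbol, where 15340 tested genes matched. Promoters are RefSeq windows of GRCm38.p6, printed only where they matched GRCm39 once. Some genes are not reported here.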

Additional observations from a re-analysis of the deposited data

Results flagged for a closer look

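For the 139 genes looked at, the CPM of the 4 embryos of each null group was checked for 1 value far from the other 3 by Dixon's ratio of gap to range, which chance gives in about 1 of 20 groups. Of 278 groups 15 were picked out. Among null controls these were *Hoxb9* 78.4 CPM in null control 1 (lowest; next 89.1), *Hoxd10* 10.99 CPM in null control 3 (highest; next 8.16), *Tbx4* 3.98 CPM in null control 1 (lowest; next 6.14), *Mir22hg* 0.986 CPM in null control 4 (highest; next 0.782), *Fdps* 89.7 CPM in null control 1 (highest; next 66.6), *H2bc18* 0.236 CPM in null control 3 (lowest; next 0.986), *H3c3* 3.10 CPM in null control 1 (highest; next 2.14), *Cdkn1c* 304 CPM in null control 1 (lowest; next 336), *Nrip1* 116 CPM in null control 2 (lowest; next 124), *Wipi1* 6.70 CPM in null control 2 (lowest; next 8.24) and *Mdm2* 64.7 CPM in null control 3 (highest; next 62.6). Among null transgenics they were *Hoxd4* 53.7 CPM in null transgenic 2 (lowest; next 56.1), *Lum* 37.5 CPM in null transgenic 3 (highest; next 30.1), *Dkk2* 12.8 CPM in null transgenic 3 (highest; next 7.06) and *COX3* 772 CPM in null transgenic 3 (highest; next 659). Null control 1 gave 5 of the 11 in null controls and null transgenic 3 gave 3 of the 4 in null transgenics.

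For 15 genes the transgene effect differed between embryos without and with KAT6A by the edgeR test of the difference (FDR under 0.05). Litter enters these differences too and cannot be told apart from the genotype. The difference, without minus with KAT6A on the log2 scale, was 1.11 for *Dlx6os1*, 0.34 for *Col1a2*, 1.25 for *Dcn*, 0.43 for *Rbpj*, 0.33 for *Igf2*, 0.76 for *Steap2*, 0.25 for *Rbm25*, -3.39 for *H1f5*, -0.40 for *COX3*, -0.50 for *Gtf2a1*, -6.46 for *Wipi1*, -1.20 for *Rasl2-9*, 0.32 for *Nrp1*, 0.96 for *Nrk* and -0.63 for *Hgsnat*. *Nrk*, a kinase of the placenta (0.32 ± 0.11, FDR 0.067), and *Hgsnat*, a lysosomal acetyltransferase (-0.20 ± 0.07, FDR 0.085), did not pass the test between the null groups. For *Hgsnat* the wild types were lowest, at 19.9, 23.2, 21.5 and 19.15 CPM, against 29.4, 29.7, 27.1 and 25.5 CPM in wild-type transgenics. The other groups were at 35.5, 37.7, 39.2 and 35 CPM in the null controls and 32.7, 31.96, 29.3 and 36.9 CPM in the null transgenics.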

How the results depend on the processing

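The *Kat6b* log2 fold change stayed between 1.95 and 2.09, past the threshold, in all 35 alternatives. The number of differentially expressed genes was within 1.5 times of 1119 in 19 of 35 alternatives, among them DESeq2 (1315), limma-voom (1253), DESeq2's size factors (1152), gene length offsets (1310), no filter (940) and only the 8 embryos (1141). It moved further with no surrogate variables (614), 1 surrogate variable (606), sex as a covariate (589), at least 10 counts in every embryo (98, but 1067 with surrogate variables held at 2), females only (388), males only (84), without the litter 801 controls (110, or 81 at 2 surrogate variables), *Gm26917* as a covariate (34), no filter at 2 surrogate variables (738) and an adjusted p under 0.01 (305), and with 1 embryo left out it ran from 492 (without null control 1) to 1671 (without wild-type transgenic 1). The number for the difference of transgene effects, 24, moved with length offsets (42), DESeq2 (138), no filter (84, but 28 at 2 surrogate variables), at least 10 counts (66, or 43 at 2 surrogate variables), without the litter 801 controls (7, or 6), *Gm26917* as a covariate (4) and an adjusted p under 0.01 (10), and ran from 16 to 81 with 1 embryo left out. With the number of surrogate variables held at 2, the counts of differentially expressed genes under the stricter filter and of differences without a filter were again within 1.5 times of the reported ones. The fits for females, for males, with sex as a covariate, with the replicate block and with only the 8 embryos used no surrogate variables. The cause of the other moves was not tested, except that fewer embryos entered some fits. Signs turned for *Ing5* (-0.015) and *Mvk* (0.022) with at least 10 counts in every embryo (0 of 120 named genes at 2 surrogate variables), *Col1a2* (-0.015) in females and the uncalled *Kat6a* (-0.044 to 0.040 with 1 embryo left out).

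Of the 135 named genes called, 90 kept the call in all 16 fits that left out 1 embryo, 99 without surrogate variables, 63 in females, 32 in males and 18 with *Gm26917* as a covariate. Replicate numbers do not pair embryos here, since same-numbered embryos correlated between -0.26 and 0.21 in their deviations from group means and 0 of 4 correlated best with their own number. With the replicate block 869 genes were called (409 higher, 460 lower), and 17 for the difference of transgene effects. Depth limits genes near 1 CPM, and 3 counts correspond to 0.0659 to 0.185 CPM in the 8 embryos.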

Other observations

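*Mir22hg*, the host transcript of a microRNA, was at 0.774, 0.782, 0.768 and 0.986 CPM in the null controls and 1.15, 1.42, 2.47 and 1.84 CPM in the null transgenics (log2 fold change 1.12 ± 0.28, FDR 0.018), and wild types of litters 801 and 803 were at 0.697 and 0.884 CPM against 1.65 and 1.72 CPM in litters 2597 and 2598. *Dnm3os*, the noncoding host of a microRNA cluster in mesenchyme, was at 8.19, 9.59, 5.79 and 2.85 CPM in the null controls and 18.2, 11.2, 16.5 and 11.7 CPM in the null transgenics (log2 fold change 1.47 ± 0.29, FDR 0.015), with wild types at 4.42 to 22.6 CPM. *Six3*, a homeobox gene of the anterior forebrain and eye, was higher in each null transgenic, at 12.6, 12.3, 12.2 and 12.3 CPM in the null controls and 15.6, 17.2, 15.2 and 16.98 CPM in the null transgenics (log2 fold change 0.40 ± 0.08, FDR 0.0052). *Cldn5*, a tight junction protein of endothelium, was lower (-0.31 ± 0.08, FDR 0.019), with 2 higher (*Nrp1* and *Tek*) and 1 lower of 32 endothelial genes, shares near the 3.39% and 3.74% of all tested genes.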
